A study of Mus musculus with 6 samples.

Results

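The E2F and retinoblastoma family is described here by 10 genes, chosen by name from the 55367 gene names of the count table. They are the transcription factor genes *E2f1* to *E2f8* and the pocket protein genes *Rb1* and *Rbl1*. All 10 passed the filter on low counts that left 14916 genes for testing. The cells were primary keratinocytes from day 2 pups of a mixed C57BL/6 and 129/Sv background, all of genotype *Ppp1r13l* flox/flox with a tamoxifen-inducible Cre (Cre+ERT, expressed from the *Rosa26* locus). Cells of each of 3 batches were split between a culture with tamoxifen (iASPP KO) and a culture without it (iASPP WT), and 1 library was made from each, so 6 libraries form 3 same-batch pairs. After a change of medium at 24 h the cultures ran for 4 days, with tamoxifen at 1 μM by the study's methods and at 1 mM by the sample labels. Tamoxifen and the deletion went together, so their parts in a difference cannot be told apart, and no source used here says how many pups made up a batch.

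E2F proteins bind the promoters of genes needed for DNA synthesis and division, mostly as dimers with a DP protein. In resting cells they are held by the pocket proteins RB, p107 (encoded by *Rbl1*) and p130 (*Rbl2*), which recruit enzymes that silence the gene. Cyclin-dependent kinases phosphorylate the pocket proteins late in G1, and the freed activator E2Fs then drive entry into S phase. E2F1, E2F2 and E2F3 are the activators, E2F4 and E2F5 repress together with p107 and p130, E2F6 represses without a pocket protein, and the atypical E2F7 and E2F8 bind DNA without DP. In the epidermis dividing cells lie in the basal layer, and the pocket proteins take part in the exit from the cycle when keratinocytes differentiate.

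The libraries held 20202517 to 25157117 counts, of which 2548 to 4128 fell on the 10 members. *Ppp1r13l*, the deleted gene, had 320, 395 and 139 counts in iASPP KO of batches 1, 2 and 3 against 697, 1100 and 472 in iASPP WT (log2 fold change −1.45, adjusted p = 0.0030, edgeR). Batch 3 stood apart on the first principal component (45.4% of the variance). Markers of basal keratinocytes were abundant in all libraries, with a summed level over 7 genes of 23693 to 27283 CPM (counts per 1000000, TMM-scaled) in the iASPP-KO cultures and 24523 to 28276 in the iASPP-WT ones. Fibroblast markers, 8 genes, summed to 39.8, 53.7 and 474.6 CPM in iASPP KO of batches 1, 2 and 3 and to 38.9, 49.1 and 692 in iASPP WT. *Col1a2* (log2 fold change −0.55, adjusted p = 0.043, edgeR) and *Col3a1* (−0.87, adjusted p = 0.027, edgeR) fell, each lower in iASPP KO in all 3 batches. The median of the 8 was −0.59, with 7 negative and 1 positive. The positive one, *Pdgfra*, had 0.81 (adjusted p = 0.258, edgeR) and was higher in iASPP KO in batches 1 and 2 and lower in batch 3. Leukocyte markers, 8 genes, summed to 65.1 to 80.9 CPM in the KO cultures and 43.6 to 64.0 in the WT ones. Of these 5 were tested, all with positive log2 fold changes (median 0.60), and *Csf1r* rose from 8.70 ± 6.60 to 17.5 ± 11.8 CPM (mean ± SD of 3 cultures; adjusted p = 0.021, edgeR). *Cd74* (0.0299 CPM on average in iASPP KO and 0.214 in iASPP WT) and *Cd207* (0.134 and 0) were at or near 0. The part of fibroblasts and leukocytes in the members' values was not tested.

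*Rbl1* and several of the E2F genes are known as E2F targets themselves, so the sequence at RefSeq start sites is shown before their values. RefSeq promoter windows (GRCm38.p6, 250 bases before to 50 after a start site) were at hand for 7 of the 10 members, with 9 windows in all, and *E2f4*, *E2f5* and *Rb1* had none. The letters searched, on both strands, were TTTCCCGC, TTTGGCGC, TTTCGCGC and TTTGCCGC, which are versions of the E2F consensus. A match was found in 4 of the 9 windows, those of *Rbl1*, *E2f2*, *E2f3* and *E2f7*, and in 2.26% of all 32851 windows. These windows are rich in G and C (54.7% to 75.3% in these 4, median over all windows 52.7%), and a match describes letters, not binding. The 60-base stretches that hold the 4 matches are given 5′ to 3′ on the gene's strand, with the match in capitals. They lie at chr2:157204519-157204578 (*Rbl1*, minus strand), chr4:136172264-136172323 (*E2f2*, plus), chr13:29986041-29986100 (*E2f3*, minus) and chr10:110745215-110745274 (*E2f7*, plus).
Rbl1: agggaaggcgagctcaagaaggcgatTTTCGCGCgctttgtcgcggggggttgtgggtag
E2f2: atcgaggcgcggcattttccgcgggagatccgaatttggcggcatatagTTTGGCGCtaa
E2f3: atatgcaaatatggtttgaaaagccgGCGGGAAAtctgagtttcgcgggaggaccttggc
E2f7: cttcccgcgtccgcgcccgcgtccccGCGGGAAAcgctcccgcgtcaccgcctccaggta
In the *Rbl1* window the match began 18 bases before the start site, and in that of *E2f3* 11 bases before it. The windows of *E2f1*, *E2f6* and *E2f8* held none of these letters. The RefSeq start site of *E2f1* lies 466 bases inside the gene as counted, so its window does not cover the annotated 5′ end, and that of the *E2f2* window shown lies 120 bases before the counted gene.

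Of the 10 members, 1 was significantly more highly expressed in iASPP WT, none was so in iASPP KO, and 9 passed in neither direction (edgeR's quasi-likelihood test with batch in the model, adjusted p under 0.05). Of all tested genes 1.95% were called higher in iASPP WT, 2.17% higher in iASPP KO and 4.12% in either direction. At an unadjusted p under 0.05, 3 members were lower in iASPP KO (8.09% of all tested genes) and none higher (8.66%). By adjusted p, DESeq2 also called 1 member higher in iASPP WT and 0 higher in iASPP KO. The gene called by edgeR was *Rbl1*. Fitted log2 fold changes of iASPP KO over iASPP WT were negative for 7 members and positive for 3, with a median of −0.34 beside 0.01 over all tested genes. In 3 members, *E2f6*, *E2f7* and *Rbl1*, the iASPP-KO culture was lower in every batch (19.7% of all tested genes), and in 1, *E2f4*, it was higher in every batch (19.5%), while 39.3% of all tested genes kept 1 direction over the batches.

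**Figure D1:**
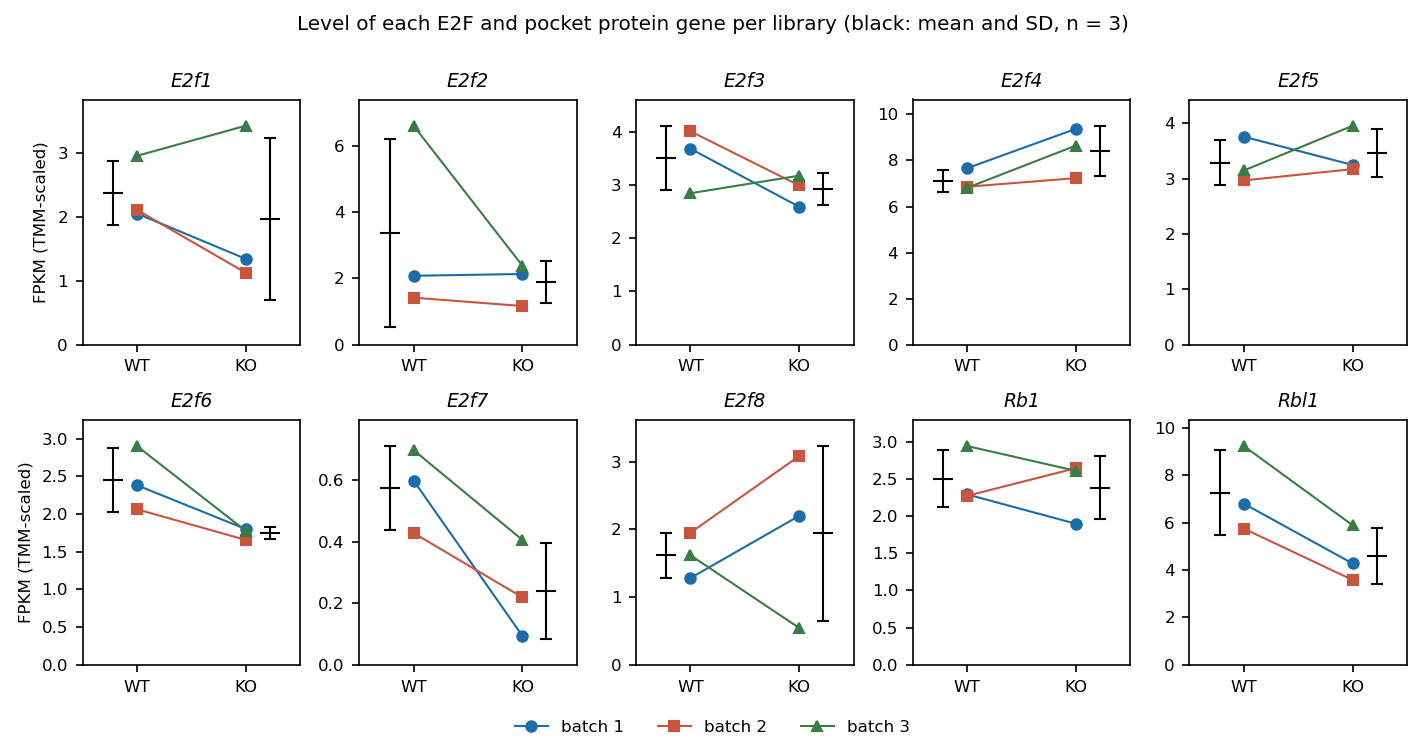
Level of each member in FPKM (counts per kilobase of exon and 1000000 counts, TMM-scaled, linear axes from 0) in iASPP WT and iASPP KO, with a line joining the 2 cultures of a batch and the mean ± SD of 3 cultures in black. The lines of *Rbl1* fall alongside each other, those of *E2f8* cross, and *E2f2* has 1 high culture, iASPP WT of batch 3 at 6.61 FPKM.

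Among the pocket proteins, *Rbl1* (chromosome 2, 157145893 to 157204534, GRCm38, minus strand) had 575, 478 and 830 counts in iASPP KO of batches 1, 2 and 3 and 869, 839 and 1241 in iASPP WT. Each iASPP-KO culture was below its partner, while the ranges of the 2 conditions overlapped, with both cultures of batch 3 high. Its level went from 43.5 ± 10.7 CPM in iASPP WT to 27.4 ± 7.08 in iASPP KO (mean ± SD of 3 cultures), a fitted log2 ratio of −0.67 (SE 0.14, adjusted p = 0.026, edgeR). As a share of the iASPP-WT partner the iASPP-KO level was 62.9%, 62.4% and 63.8% in the 3 batches. The 95% counting intervals of the within-batch log2 ratios were −0.82 to −0.52, −0.85 to −0.52 and −0.78 to −0.52. The call was lost when batch 1 (adjusted p = 0.116, edgeR) or batch 2 (adjusted p = 0.145, edgeR) was left out, at nearly the same log2 fold changes (−0.66 and −0.65), and without the batch term (adjusted p = 0.973, edgeR). Markers of cycling cells were also lower in iASPP KO, with median log2 ratios of −1.51, −1.26 and −0.84 in batches 1, 2 and 3. All 6 on the list had negative log2 fold changes and 4 of them fell, and their summed level was 117, 112 and 413 CPM in iASPP KO of batches 1, 2 and 3 against 323, 265 and 726 in iASPP WT. Fewer cells of a type and less RNA per cell cannot be told apart in such bulk libraries, and the part of cell cycling in the *Rbl1* result was not tested.

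*Rb1* (chromosome 14, 73183673 to 73325822), which encodes RB, had 256, 354 and 369 counts in iASPP KO of the 3 batches and 294, 333 and 397 in iASPP WT. The conditions overlapped, and the iASPP-KO culture was the lower one in 2 batches and the higher one in the other. The level was 14.3 ± 2.53 CPM with and 15.0 ± 2.29 without tamoxifen (mean ± SD of 3 cultures), a fitted log2 ratio of −0.08 (SE 0.20, adjusted p = 0.901, edgeR). Genes on the opposite strand, *Lpar6* and *Rcbtb2*, overlap 896 bases of *Rb1* exons. They had 248 to 538 and 384 to 515 counts per library. Reads were counted by strand, and the part of these genes in the *Rb1* counts was not tested. *Rbl2*, the remaining pocket protein gene, had 24.3 ± 3.72 and 24.5 ± 9.28 CPM (mean ± SD of 3 cultures) and a fitted log2 ratio of 0.04 (SE 0.19, adjusted p = 0.952, edgeR), with within-batch values of −0.12, 0.53 and −0.28. Per length, *Rbl1* exceeded *Rb1* in all 6 libraries, by a ratio of 2.53 to 3.14 in iASPP WT and 1.36 to 2.26 in iASPP KO.

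The activators gave no call. *E2f1* (chromosome 2, 154559407 to 154569892), the founding member and an inducer of both S phase and apoptosis, had 95, 79 and 254 counts in iASPP KO of batches 1, 2 and 3 and 138, 162 and 209 in iASPP WT. It was thus lower in iASPP KO in batches 1 and 2 (65.4% and 53.4% of the partner's CPM) and higher in batch 3 (116%). Its fitted log2 ratio was −0.42 (SE 0.31, adjusted p = 0.569, edgeR), and it was −0.18 without batch 2 and −0.76 without batch 3. *E2f3* (chromosome 13, 29906575 to 29986063), which has a long and a short form started from separate promoters, showed the same order. It had 316, 362 and 406 counts in iASPP KO and 427, 531 and 347 in iASPP WT, and its fitted log2 ratio was −0.26 (SE 0.20, adjusted p = 0.597, edgeR). Left-out batches moved this value to −0.13 (batch 1), −0.17 (batch 2) and −0.46 (batch 3). For both genes the 95% counting interval of the within-batch log2 ratio lay below 0 in batches 1 and 2 and covered 0 in batch 3.

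*E2f2* (chromosome 4, 136172394 to 136196057) differed from these in its batches. It had 234, 127 and 274 counts in iASPP KO and 217, 169 and 725 in iASPP WT, and the last of these, from batch 3, set it apart. The within-batch log2 ratios were 0.04, −0.28 and −1.47, with counting intervals that covered 0 in batches 1 and 2 and ran from −1.68 to −1.27 in batch 3. The log2 fold change over all batches was −0.58 (SE 0.29, adjusted p = 0.359, edgeR), while it was −0.12 without batch 3 and −0.90 without batch 1. The fibroblast markers were also high in batch 3, at 692 CPM in that iASPP-WT culture and 474.6 in its iASPP-KO partner, and their part in the *E2f2* value was not tested.

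Among the repressors, *E2f4* (chromosome 8, 105297663 to 105305370), the partner of p107 and p130 in resting cells, had the highest mean FPKM of the E2F genes in both conditions. It had 516, 395 and 499 counts in iASPP KO and 401, 410 and 375 in iASPP WT, and scaled to library size it was higher in iASPP KO in every batch, at 122%, 105% and 127% of the partner. The fitted log2 ratio of 0.24 (SE 0.17, adjusted p = 0.573, edgeR) did not pass. *E2f5* (chromosome 3, 14578641 to 14606309), which is close to E2F4 in function, had 130, 126 and 166 counts in iASPP KO and 143, 129 and 126 in iASPP WT. Its fitted log2 ratio was 0.07 (SE 0.29, adjusted p = 0.938, edgeR), and every within-batch counting interval covered 0.

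*E2f6* (chromosome 12, 16810963 to 16839742), which represses through a Polycomb-type complex, had 229, 209 and 237 counts in iASPP KO and 288, 285 and 369 in iASPP WT. Its levels did not overlap between conditions, at 9.38 to 10.2 CPM in iASPP KO and 11.7 to 16.4 in iASPP WT. Such a gap with iASPP KO below was found in 2 members, *E2f6* and *E2f7*, and in 5.46% of all tested genes, while the reverse gap was found in no member and in 5.26% of all tested genes. The log2 fold change of *E2f6* was −0.48 (SE 0.21, unadjusted p = 0.0475, adjusted p = 0.292, edgeR). Genes of its complex gave no call either. Of 10 listed partners, among them *Mga*, *Max* and *L3mbtl2*, all were tested, none passed in either direction, and the median log2 fold change was −0.12. Of 5 germline genes known to be silenced by E2F6, only *Stag3* had enough counts to be tested, with a fitted log2 value of −0.77 (adjusted p = 0.576, edgeR) at a mean of 2.43 CPM or less per condition. The other 4, *Smc1b*, *Slc25a31*, *Tuba3a* and *Tuba3b*, did not rise above the filter in either condition.

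The atypical repressors gave no call. *E2f7* (chromosome 10, 110745439 to 110787384) had 19, 44 and 86 counts in iASPP KO of batches 1, 2 and 3 and 115, 94 and 141 in iASPP WT. Every iASPP-KO culture was below every iASPP-WT culture in CPM, at 0.846 to 3.65 against 3.86 to 6.28. The fitted log2 ratio was −1.42 (SE 0.48, unadjusted p = 0.0136, adjusted p = 0.153, edgeR), the furthest from 0 of the 10 members. Batches 1, 2 and 3 alone gave log2 ratios of −2.67, −0.96 and −0.78, and the counting interval of batch 1 (−3.45 to −1.96) did not reach those of the other batches. *E2f7* passed in 1 of 10 alternatives, that without batch 3, at −1.78 (adjusted p = 0.031, edgeR). It was −0.87 without batch 1 (adjusted p = 0.597, edgeR) and −1.65 without batch 2 (adjusted p = 0.226, edgeR).

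*E2f8* (chromosome 7, 48866429 to 48881596), its closest relative, had 269, 374 and 70 counts in iASPP KO and 149, 259 and 198 in iASPP WT. In batches 1 and 2 the iASPP-KO culture was the higher one, at 172% and 158% of its partner, and in batch 3 it was the lower one, at 33.7%. The 95% counting intervals of the log2 ratio were 0.49 to 1.08, 0.43 to 0.89 and −1.98 to −1.17, so the batches differed by more than counting error. The fit over all batches gave 0.02 (SE 0.42, adjusted p = 0.987, edgeR), and it turned negative when batch 1 (−0.40) or batch 2 (−0.36) was left out. A noncoding gene on the opposite strand, *Gm2788*, overlaps 610 bases of *E2f8* exons and had 0 to 27 counts in any library. No 42-base window of the longest *E2f8* transcript (3691 bases) occurs in another gene's transcript. The counted exons span 5443 bases, and those outside this transcript were not checked. The ratio of *E2f7* to *E2f8* per length was 0.0427, 0.0711 and 0.742 in iASPP KO of the 3 batches and 0.466, 0.219 and 0.430 in iASPP WT.

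**Figure D2:**
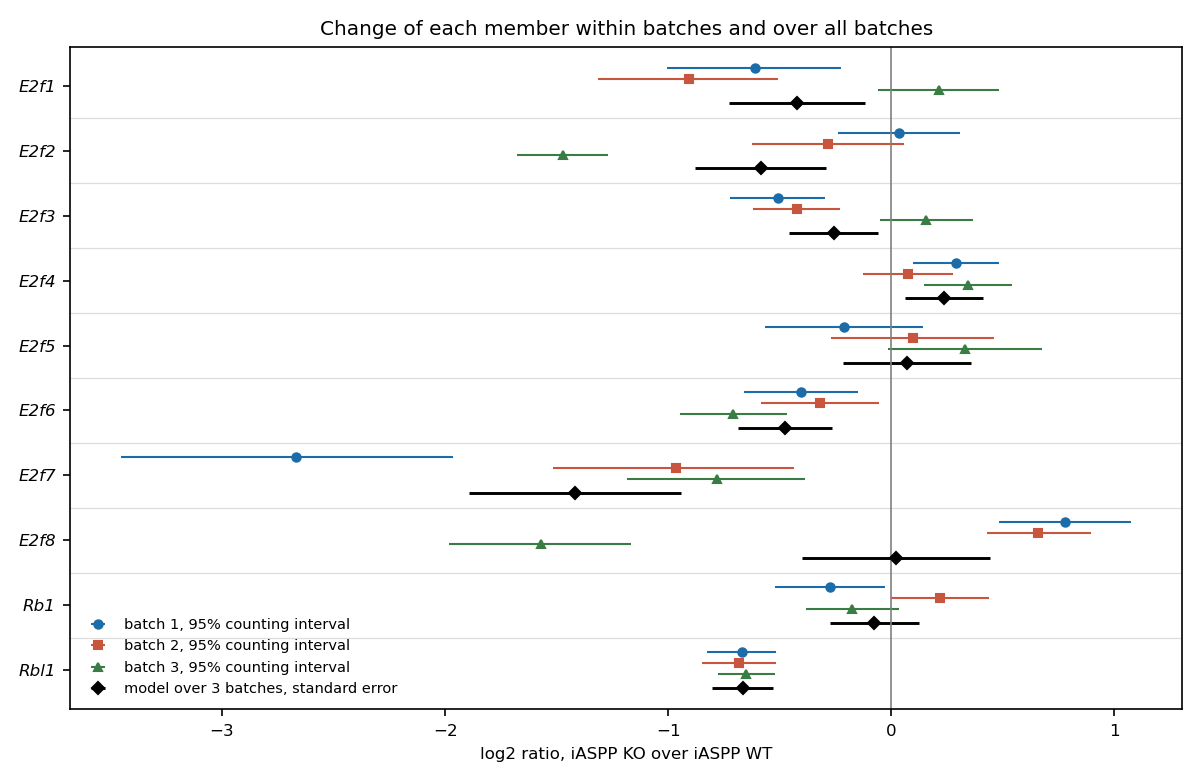
Log2 ratio of iASPP KO over iASPP WT for each member, with the 3 within-batch values and their 95% counting intervals in colour and the edgeR estimate over the 3 batches ± standard error in black. *Rbl1* has 3 within-batch values between −0.68 and −0.65, *E2f7* lies below 0 in each batch, and *E2f8* lies on both sides of 0.

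Levels can be set side by side between genes only per length. In iASPP WT the order by mean FPKM was *Rbl1* (7.25 ± 1.79), *E2f4* (7.11 ± 0.48), *E2f3* (3.51 ± 0.60), *E2f2* (3.37 ± 2.83), *E2f5* (3.29 ± 0.41), *Rb1* (2.50 ± 0.38), *E2f6* (2.45 ± 0.42), *E2f1* (2.37 ± 0.50), *E2f8* (1.62 ± 0.33) and *E2f7* (0.57 ± 0.14; SD, n = 3). Neighbours in this order had overlapping ranges except *E2f4* and *E2f3*, *E2f5* and *Rb1*, *E2f1* and *E2f8*, and *E2f8* and *E2f7*. In iASPP KO *E2f4* came before the rest at 8.42 ± 1.09 FPKM, with no overlap with *Rbl1* (4.58 ± 1.18), and *E2f7* came last at 0.24 ± 0.16, with no overlap with *E2f6* (1.75 ± 0.08; SD, n = 3). The genes between them, *E2f5*, *E2f3*, *Rb1*, *E2f1*, *E2f8* and *E2f2*, each overlapped their neighbour. *E2f7* was the lowest member in each of the 6 libraries. Its mean stood at the 13.5th percentile of tested genes, and that of *E2f4* at the 65.0th. The length used joins all exons of a gene name, so a gene with long rare exons is set too low.

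Summed by role, the activators *E2f1* to *E2f3* had 6.07, 5.29 and 8.98 FPKM in iASPP KO of batches 1, 2 and 3 and 7.82, 7.54 and 12.4 in iASPP WT. The repressors *E2f4* to *E2f6* had 14.4, 12.1 and 14.4 FPKM in iASPP KO and 13.8, 11.9 and 12.9 in iASPP WT. By FPKM the activators were thus the lower sum in iASPP KO in each batch and the repressors the higher one. The repressor direction depended on the division by length. In CPM the repressors summed to 38.97, 32.77 and 38.32 in iASPP KO and to 38.98, 33.80 and 38.75 in iASPP WT, slightly lower in iASPP KO in each batch. The activators were lower there by CPM too. Of the repressors, *E2f4* was higher in iASPP KO in every batch and *E2f6* lower. Activators over repressors by FPKM gave 0.42, 0.44 and 0.62 in iASPP KO and 0.57, 0.63 and 0.96 in iASPP WT. The activator share of the summed E2F level changed by −6.63, −8.97 and −8.04 percentage points between iASPP WT and iASPP KO of batches 1, 2 and 3. *E2f1* and *E2f3* were lower in iASPP KO in batches 1 and 2 and higher in batch 3. *E2f2* was lower in batches 2 and 3, with 2.38 FPKM in iASPP KO and 6.61 in iASPP WT of batch 3. The lower activator sum of batch 3 thus came from *E2f2* alone. Median log2 ratios of the activators in batches 1, 2 and 3 were −0.50, −0.42 and 0.16. Those of the repressors were −0.21, 0.08 and 0.33. The difference of the repressor share was 4.56, 3.88 and 12.5 points, and that of the atypical share was 2.07, 5.09 and −4.48. No test was made over these sums, whose members were chosen with results known.

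**Figure D3:**
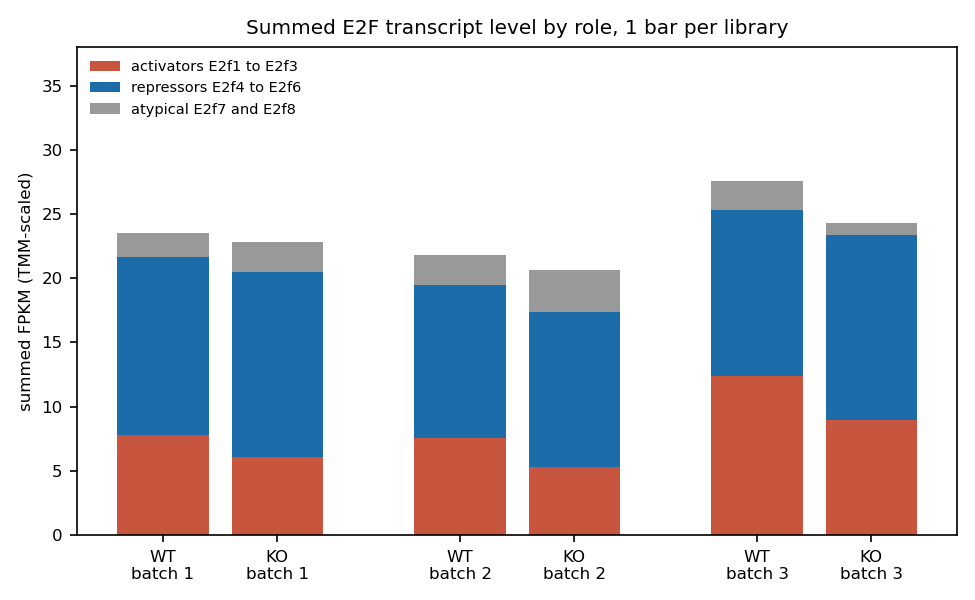
Summed FPKM of the activator, repressor and atypical E2F genes, stacked, with 1 bar per library and the 2 cultures of a batch side by side (linear axis from 0). In each batch the activator part is smaller in iASPP KO, in batch 3 through *E2f2* alone. The repressor part is larger there by FPKM but not by the CPM sums given in the text.

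Among the partners of the family, the DP gene *Tfdp2* fell, from 26.4 ± 13.3 CPM in iASPP WT to 16.8 ± 13.3 in iASPP KO (mean ± SD of 3 cultures), a fitted log2 ratio of −0.81 (SE 0.19, adjusted p = 0.0458, edgeR). *Tfdp1*, the other DP gene, had −0.18 (adjusted p = 0.650, edgeR). The MuvB core, which joins p107 or p130 and E2F4 into the DREAM repressor, gave no call among 5 genes. Its activating partners *Mybl1*, *Mybl2* and *Foxm1* gave none among 3, with *Mybl2* at −1.17 (adjusted p = 0.063, edgeR). Of 9 corepressors of RB, *Suv39h1*, a histone H3 lysine methyltransferase, fell, with a fitted log2 ratio of −1.09 (SE 0.16, adjusted p = 0.0060, edgeR), and the other 8 did not pass.

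Of the 9 cyclins and kinases that phosphorylate pocket proteins, *Ccna2* (cyclin A2; mean of 60.9 CPM in iASPP WT and 23.5 in iASPP KO, adjusted p = 0.0012, edgeR) and *Ccne1* (cyclin E1; log2 fold change −1.22, adjusted p = 0.026, edgeR) fell. The D-type cyclins and their kinases did not pass, with *Ccnd1* at −0.02, *Cdk4* at 0.18 and *Cdk6* at −0.07. *Ccne2* (−0.72, adjusted p = 0.069, edgeR) and *Cdk2* (−0.52, adjusted p = 0.061, edgeR) did not pass either, each lower in iASPP KO in all 3 batches. Of the 9 genes, 7 had a negative and 2 a positive log2 fold change. Of 7 CDK inhibitor genes 6 were tested, and *Cdkn1a*, which encodes p21 and is a target of p53, rose from 82.9 ± 18.9 to 128 ± 23.2 CPM (mean ± SD of 3 cultures), a fitted log2 ratio of 0.64 (SE 0.11, adjusted p = 0.014, edgeR). Of 5 genes of the machinery that degrades E2F or pocket proteins, *Cdc20* (−1.72) and *Ccnf* (−0.74) fell.

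The G1/S target list held 32 genes that E2F is known to activate. All were tested, 17 fell, none rose and 31 had a negative log2 fold change, with a median of −0.67 and within-batch medians of −0.81, −0.69 and −0.68, beside a median of 0.01 over all tested genes. The list was drawn up with earlier results of these data known, so its direction is not independent evidence. The cycling markers given above were lower in iASPP KO in the same batches, and their part in these values was not tested. The smallest adjusted p-values (log2 fold changes in parentheses) were those of the replication helicase genes *Mcm6* (−1.19), *Mcm5* (−1.08) and *Mcm3* (−1.15), of *Uhrf1* (−1.39), which keeps DNA methylation through replication, of *Cdc45*, which works with that helicase, and of *Pola1* (−1.05), a DNA polymerase subunit. The change of *Mcm6* was from 105 ± 45.6 to 45.6 ± 17.2 CPM (mean ± SD of 3 cultures; adjusted p = 0.0011, edgeR). Promoter windows were at hand for 25 of these genes, and 11 held one of the letters above (beside 2.61% of 27025 genes). The genes were chosen as known E2F targets, so this comparison is not independent of the choice. With batch 1 left out, the genes called higher in iASPP WT over the members' surrounding lists fell from 23 to 9, and with batch 2 left out to 11.

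**Figure D4:**
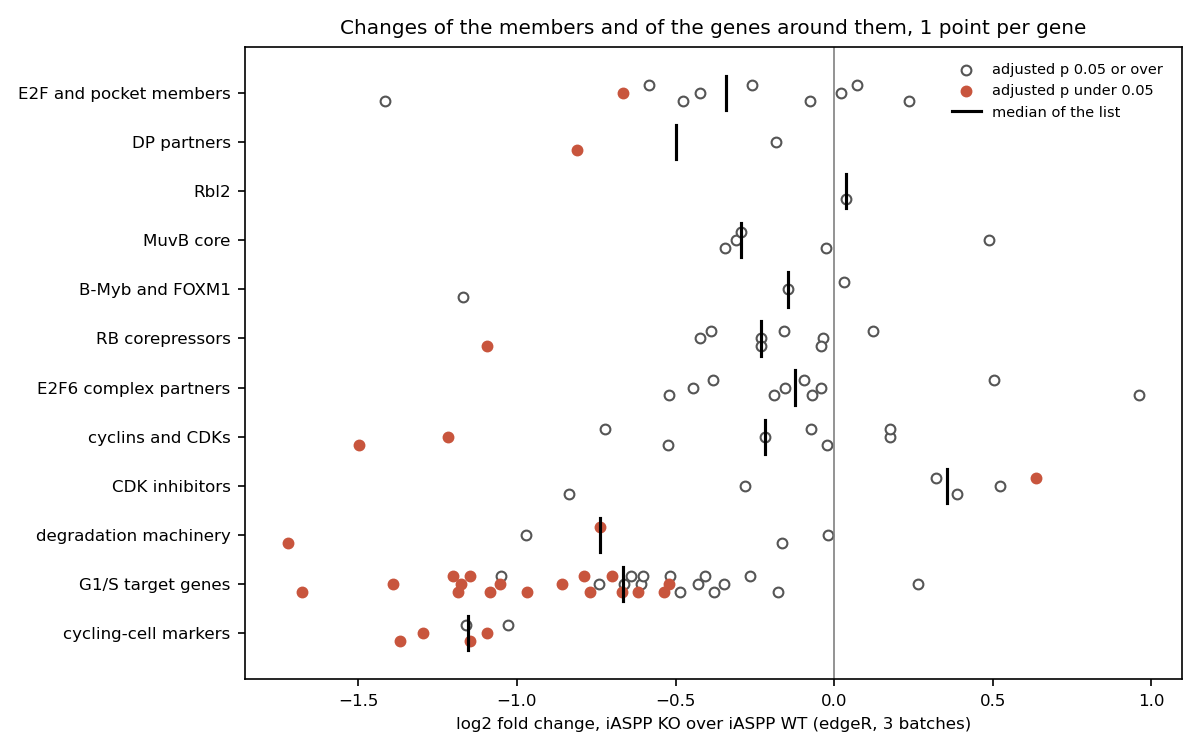
Log2 fold change of each tested gene of the family and of the lists around it, 1 point per gene, filled where the adjusted p was under 0.05 and with a bar at the list's median. Of the members only *Rbl1* is filled, while 17 of 32 target genes are filled, all below 0, and the only filled point above 0 is *Cdkn1a*.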

How the data were processed

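RNA was sequenced from 6 libraries, 3 per condition. Per the labels, the authors trimmed reads with cutadapt 2.10 and aligned them with STAR 2.7.3 to mm10, and per the file headers they made the deposited counts per gene name with featureCounts 2.0.0, counted by strand. Deposited results of the authors' own comparison were not used.

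The counts were fitted in edgeR 4.0.16 (R 4.3.3) after its filter by condition, with TMM scaling, batch and condition in a quasi-likelihood model and Benjamini-Hochberg adjustment over all 14916 tested genes (threshold 0.05). CPM and FPKM were computed from the counts, TMM-scaled library sizes and the exon length given in the table. Within-batch ratios carry 95% intervals for counting error only. The standard error (SE) of a fitted log2 ratio was derived from its test. It is the absolute ratio divided by the square root of the quasi-likelihood F statistic. A limit of 3 counts corresponds to 0.119 to 0.148 CPM. Deviations from the condition means correlated at 0.302, 0.368 and 0.568 between the cultures of a batch, which the labels name as split between conditions. Between cultures of different batches the values ran from −0.427 to 0.179. Centring on a mean of 3 cultures pulls these values down. The p-values of the main fit rest on how the difference within a batch varied over the 3 batches (2 residual degrees of freedom). That variance was moderated by a prior over all tested genes (8.17 degrees of freedom).

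Members and gene lists were chosen with earlier results of these data known. Named genes are the members, up to 6 called genes of each list by smallest adjusted p, and the 5 genes most like *E2f1* and *Rb1*, of which 1 is not reported here; the D-type cyclins and kinases, *Tfdp1*, *Rbl2*, *Mybl2*, *Stag3*, the complex partners and other uncalled genes were named beyond that rule, after their values were seen. Alternatives were the model without batch, DESeq2 1.42.0, its size factors, upper-quartile scaling, no filter, a filter at 10 counts in every library, robust dispersion, and each batch left out. The code was tested on simulated data.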

Additional observations from a re-analysis of the deposited data

How the results depend on the processing

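The *Rbl1* log2 ratio kept its sign in all 10 alternatives and passed in 7 of them, with adjusted p (edgeR or DESeq2) from 0.0031 to 0.973. It did not pass without the replicate block, at −0.66, or without batch 1 or 2. With a batch left out it ranged from −0.68 to −0.65. Without the replicate block, that is without batch in the model, 0 genes were called in either direction (360 higher in iASPP KO and 331 higher in iASPP WT at an unadjusted p under 0.05, edgeR), so 0 members and 0 genes of the surrounding lists. Without a filter the called genes were 624 higher in iASPP KO and 491 higher in iASPP WT, where 323 and 291 were called with it. With a batch left out, called genes ranged from 169 to 793 (higher in iASPP KO) and from 117 to 662 (higher in iASPP WT), called members higher in iASPP WT from 0 to 2, and list genes from 0 to 3 and from 9 to 27. In the same fits *E2f1* ranged from −0.76 to −0.18, *E2f2* from −0.90 to −0.12, *E2f3* from −0.46 to −0.13, *E2f8* ranged from −0.40 to 0.72, *Rb1* from −0.219 to 0.026, *E2f5* from −0.058 to 0.217 and *E2f7* from −1.78 to −0.87, and *E2f8* also turned negative at −0.36 without batch 2. The cause was not tested. The other 92 member values kept their direction and side of the threshold. The largest standard errors were those of *E2f7* (0.48, with 19 counts in 1 library) and *E2f8* (0.42, with 70 to 374 counts). In both genes batches differed by more than counting error.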

Other observations

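The genes whose log2 CPM over the 6 libraries was most like that of *E2f1*, among 8775 genes with a mean of at least 10 CPM, were *Supt16*, *Septin9*, *Dhx36*, *Shld2* and *Erf* (Pearson r from 0.986 to 0.992). Among those most like *Rb1* were *Gfer*, *Rpap3*, *Tlk2* and *A130010J15Rik* (r from 0.970 to 0.985). The 6 points come from 3 batches, of which batch 3 stood apart, and each r is a description of these libraries.

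Suprabasal keratinocyte markers had 1 gene that rose, *Sbsn*, and 1 that fell, *Krt10*, among 7 tested. Their summed level was 974 to 3151 CPM in iASPP KO and 911 to 2872 in iASPP WT, with both lowest values in batch 3. Melanocyte markers gave no call among 6 genes, at 341 to 1088 CPM over all libraries, and endothelial markers summed to 2.72 to 13.0 CPM. For *E2f1*, 2.32% of the 42-base windows of its longest transcript also occur in transcripts of other genes, and for the other 9 members none does.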
